A study of Mus musculus with 16 samples.

Results

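The imprinted growth genes described here are Dlk1, Meg3, H19, Igf2, Igf2r, Peg3, Mest, Grb10, Plagl1 and Cdkn1c. Their members were found as the non-control probes whose RefSeq accession belongs to 1 of these 10 genes, which gave 18 probes of the 56605 distinct probes on the array and 10 of the 22911 gene symbols. The rule matches names and sets no threshold on a measured value, but the 10 genes were picked with earlier results of these data known. All 10 genes and all 18 probes were bright enough to be tested, among 15645 genes and 34730 probes that passed the same filter (a Cy5 signal called well above background by the scanner software for 4 or more of the 16 arrays). The probe with the highest mean intensity stood for each gene.

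Total RNA from whole kidneys of C57BL/6 mouse embryos at embryonic day 17.5 was measured on 16 Agilent arrays with 2 dyes. The 4 genotypes had 4 arrays each: wild-type control; conditional homozygous loss of Ezh2 from Six2-positive nephron progenitors with intact Ezh1 (Ezh2-KO); the same Ezh2 loss with 1 germline Ezh1 allele lost (Ezh1-het); and the same Ezh2 loss with both germline Ezh1 alleles lost (double-KO). Each sample was labelled with Cy5 and hybridised beside Cy3-labelled control 1 RNA, so a value is the log2 ratio of a kidney to that control RNA, and the array of control 1 compared that RNA with itself. Ezh2 and Ezh1 are the alternative histone methyltransferases of the Polycomb complex PRC2. The Ezh2 deletion acts in Six2-positive progenitors and so in the nephron cells they form, the germline Ezh1 loss in every cell, and each group with Ezh1 loss also carries the Ezh2 deletion. The labels do not say whether controls carried the floxed alleles or the Cre driver. In whole kidneys a lower signal from fewer cells of a type and less RNA per cell cannot be told apart.

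Imprinted genes are transcribed from a single parental allele, in clusters whose DNA is methylated differently on the maternal and paternal copy. Many of them set the rate of growth of the fetus: those expressed from the paternal copy (Dlk1, Igf2, Mest, Peg3, Plagl1) mostly promote or pattern growth, and those expressed from the maternal copy (H19, Igf2r, Cdkn1c, and Grb10 outside the brain) mostly restrain it. In the embryonic kidney Igf2 and H19 are abundant, and Cdkn1c, which halts the cell cycle, is required for normal development of the medulla and marks maturing podocytes.

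The targeted genes were checked against the labels first. Ezh1 (probe A_55_P2082869) ranged from -0.31 to 0.22 in controls, from -0.30 to 0.37 in Ezh2-KO, from -1.38 to -0.88 in Ezh1-het and from -4.62 to -4.44 in the double-KO. The Ezh2 probe A_51_P248067 ranged from -0.51 to 0.44 in controls and from -3.74 to -2.69 over the 12 arrays of the other groups, while the remaining 4 Ezh2 probes differed from control by at most 0.58 in size. Which Ezh2 probes lie in the deleted part was not analysed here. Six2, Cited1, Wt1, Foxd1 and Pdgfra, markers of nephron progenitors and stroma, were well above background on all 16 arrays. The upper quartile of Cy5 signal over background was lowest on control 2 (5.21) and highest on Ezh2-KO 4 (16.6). No spot was saturated.

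The largest changes that passed the test among the imprinted growth genes were those of Dlk1 and Meg3. Dlk1, a Notch-like membrane protein of progenitor cells, rose 3.29-fold in the double-KO, 2.34-fold in Ezh1-het and 2.06-fold in Ezh2-KO, and the long non-coding RNA Meg3 beside it rose 2.06-fold in Ezh1-het and 1.91-fold in the double-KO. Mest fell in all 3 knockout groups (1.51-fold, 1.79-fold and 1.46-fold lower) and Grb10 in Ezh2-KO and Ezh1-het (1.53-fold and 1.65-fold lower). Igf2, the fetal growth factor itself, rose 1.47-fold in the double-KO on its brightest probe. H19, Igf2r, Peg3, Plagl1 and Cdkn1c passed the test in none of the comparisons. Dlk1, Meg3 and Igf2 kept a positive difference in each of the 22 alternatives run per comparison. The double-KO call of Igf2, however, was lost in 6 of 8 fits with 1 array left out and in 3 of 14 other alternatives. The further Igf2 probe passed in no comparison with control. With arrays centred on the median in place of loess, the falls of Mest and Grb10 shrank towards 0, and their double-KO differences were 0.12 and 0.10. The median of all genes in the double-KO was then 0.38.

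Counted over the 10 genes with limma's moderated test, adjusted by Benjamini-Hochberg over all 15645 genes (threshold 0.05), 3 differed from control in Ezh2-KO (1 higher, 2 lower), where 3.08% of all genes were called (2.4% higher, 0.678% lower). In Ezh1-het 4 differed (2 higher, 2 lower) against 7.81% of all genes (5.91% higher, 1.9% lower). In the double-KO 4 differed (3 higher, 1 lower) against 4.62% of all genes (3.71% higher, 0.914% lower). The arrays of the groups did not overlap for 4, 7 and 4 of the 10 genes in the same order, against 11.2%, 17.9% and 9.34% of all genes. The median difference over the 10 was 0.16, 0.38 and 0.28, and over all genes 0.06, 0.05 and 0.01. The count in Ezh2-KO fell to 1 without control 2, without Ezh2-KO 2 or without Ezh2-KO 4, and the count in the double-KO to 2 without control 2 or without double-KO 4 and to 1 without double-KO 3. With controls 2 and 3 both left out, the counts were 0, 0 and 2, and in fits of only the groups compared they were 0, 5 and 1, so that in Ezh2-KO no call held and in the double-KO only that of Dlk1. With median centring 6, 6 and 8 of the genes were called, all higher, beside 6839, 8037 and 5364 of all 15645 genes in either direction. The median of all genes then moved to 0.41, 0.44 and 0.38. The 3 comparisons share the control arrays.

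**Figure D1:**
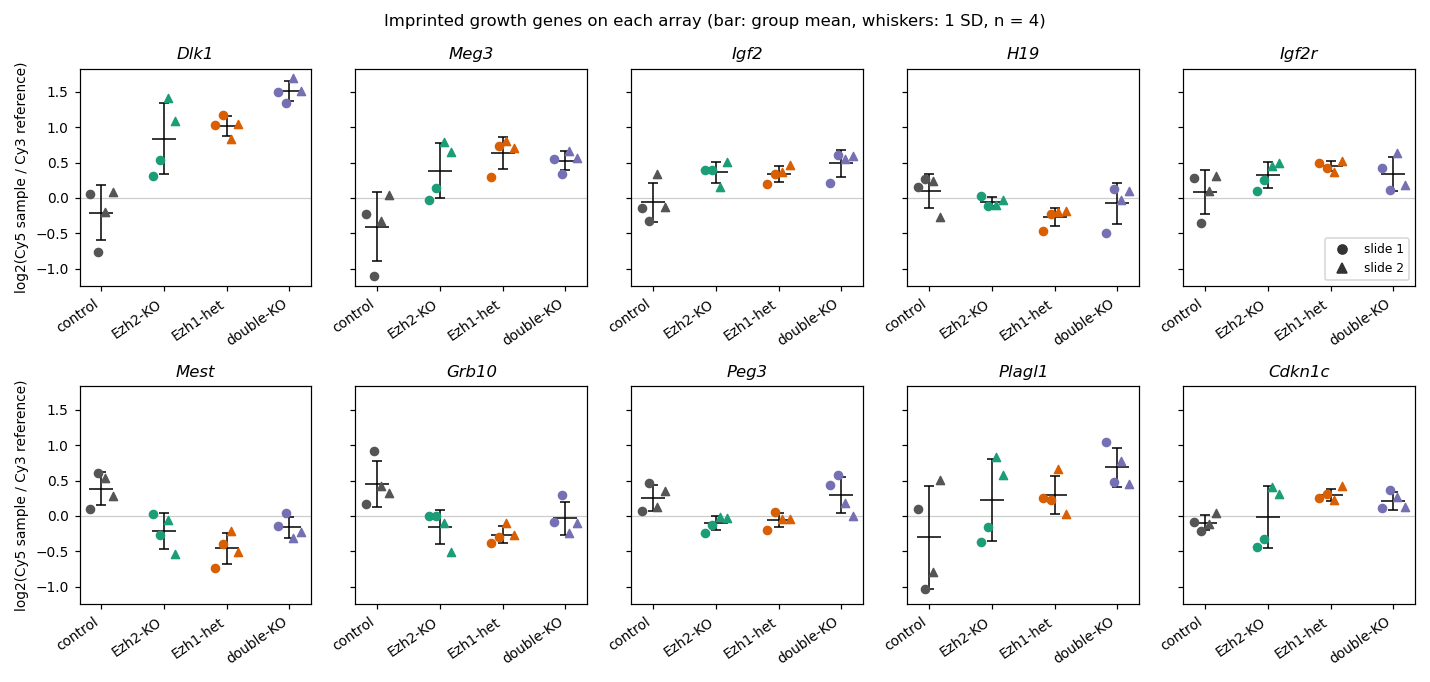
Log2 ratio of sample (Cy5) to control 1 RNA (Cy3) on each of the 16 arrays for the brightest probe of the 10 imprinted growth genes, by group; circles are slide 1 and triangles slide 2, the bar is the group mean and whiskers are 1 SD (n = 4). All 4 double-KO arrays of Dlk1 lie between 1.34 and 1.69, above every array of the other groups apart from Ezh2-KO 3 (1.41), and control 2 is the lowest array for Dlk1, Meg3 and Plagl1 and the highest for Grb10.

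Dlk1 and Meg3 are neighbours in a single imprinted domain, in which Dlk1 is read from the paternal copy and Meg3 from the maternal copy. Because both passed the test as higher in Ezh1-het and the double-KO, the 250 bases before the most upstream start of each are shown, from RefSeq promoter entries on GRCm38.p6, with CpG dinucleotides, the sites of DNA methylation, in capitals. The entry of Dlk1 lies at chr12:109452573-109452822 and that of Meg3 at chr12:109540746-109540995, both on the plus strand.
Dlk1: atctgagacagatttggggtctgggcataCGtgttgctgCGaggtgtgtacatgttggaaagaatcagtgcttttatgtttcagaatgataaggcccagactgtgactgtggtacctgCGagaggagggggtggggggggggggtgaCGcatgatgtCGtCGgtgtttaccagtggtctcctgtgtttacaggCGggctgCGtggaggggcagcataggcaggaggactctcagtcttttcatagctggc
Meg3: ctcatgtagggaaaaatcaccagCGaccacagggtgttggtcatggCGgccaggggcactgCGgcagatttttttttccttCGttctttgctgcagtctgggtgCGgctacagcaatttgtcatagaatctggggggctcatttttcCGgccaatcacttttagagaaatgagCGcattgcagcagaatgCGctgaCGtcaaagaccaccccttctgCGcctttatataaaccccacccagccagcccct
These stretches hold 8 and 10 CpG, against a median of 6 over the 32841 promoters of the table, and 57.0% and 62.2% of all promoters hold fewer. The same stretch of the further listed start of Meg3 holds 0. The arrays do not measure methylation.

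The log2 ratio of Dlk1 was 0.06, -0.76, -0.20 and 0.08 on control arrays 1 to 4. It was 0.31, 0.54, 1.41 and 1.09 on Ezh2-KO arrays 1 to 4 and 1.02, 1.17, 0.83 and 1.05 on Ezh1-het arrays 1 to 4. On double-KO arrays 1 to 4 it was 1.50, 1.34, 1.69 and 1.51. Each of the 12 knockout arrays lay above each control array, and the Ezh2-KO arrays were spread widest. Group means were -0.21 ± 0.39 (SD, n = 4) in controls, 0.84 ± 0.50 for Ezh2-KO, 1.02 ± 0.14 for Ezh1-het and 1.51 ± 0.14 for the double-KO. From control, Dlk1 thus rose by 1.04 with Ezh2 loss alone (SE 0.21, limma adjusted p = 0.0159), by 1.23 in Ezh1-het (adjusted p = 0.00285) and by 1.72 in the double-KO (adjusted p = 0.00012). The last value stood above that of 99.9% of genes tested.

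Within slide 1 the 3 differences of Dlk1 were 0.77, 1.45 and 1.77, and within slide 2 they were 1.31, 1.00 and 1.66. Each single array could be left out with all 3 calls kept, and the double-KO call held in each of the 22 alternatives run. Without controls 2 and 3 the calls in Ezh2-KO (0.77, limma adjusted p = 0.182) and Ezh1-het (0.95, adjusted p = 0.0515) were lost. The order of the group means follows the number of Ezh1 alleles lost, but the steps between knockout groups did not pass the test: Ezh1-het exceeded Ezh2-KO by 0.18 (95% confidence interval -0.27 to 0.64, limma adjusted p = 0.836), the double-KO exceeded Ezh1-het by 0.49 (0.04 to 0.94, adjusted p = 0.313) and Ezh2-KO by 0.67 (0.22 to 1.13, adjusted p = 0.174). The 4 double-KO arrays lay above all 4 Ezh1-het arrays, and 3 of them above all Ezh2-KO arrays. A further, dimmer Dlk1 probe (A_52_P177324) gave differences of 0.47, 0.59 and 0.75 (SE 0.17 each) in the fit of all probes, which passed in Ezh1-het (adjusted p = 0.0447) and the double-KO (adjusted p = 0.0176) and not in Ezh2-KO (adjusted p = 0.116).

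Meg3 ratios on control arrays 1 to 4 were -0.22, -1.11, -0.33 and 0.04. On Ezh2-KO arrays 1 to 4 they were -0.03, 0.14, 0.79 and 0.65, and on Ezh1-het arrays 0.30, 0.74, 0.80 and 0.71. On double-KO arrays they were 0.55, 0.34, 0.66 and 0.56. Ezh2-KO 1 overlapped the controls, and the Ezh1-het and double-KO arrays did not. The difference from control was 0.79 in Ezh2-KO (SE 0.22, limma adjusted p = 0.0564), 1.04 in Ezh1-het (adjusted p = 0.00973) and 0.93 in the double-KO (adjusted p = 0.0187). Within slide 1 these were 0.72, 1.18 and 1.11, and within slide 2 0.87, 0.90 and 0.76. With a slide block Meg3 also passed in Ezh2-KO (adjusted p = 0.0206). The double-KO call was lost without double-KO 3 (0.89, limma adjusted p = 0.069), and without controls 2 and 3 the differences in Ezh1-het and the double-KO were 0.73 and 0.62 (adjusted p = 0.104 and 0.142).

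Meg3 has 4 probes, and those well above background on the control arrays had positive differences in each comparison with control. A_55_P2033407 gave 0.63, 0.86 and 0.70 (SE 0.14) and passed in all 3 comparisons. A_55_P2736010 gave 0.47, 0.74 and 0.84 (SE 0.19) and passed in Ezh1-het and the double-KO. The dimmest, A_65_P01584, failed that background criterion on each of the 4 control arrays and met it on 2, 3 and 3 arrays of the knockout groups. Its mean log2 ratio was -0.05 in controls, where it is only a bound, and 0.06, 0.14 and 0.28 in the knockout groups, so no fold is given. This probe passed the filter through knockout arrays alone, which favours a positive difference, so its sign does not count as agreement.

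Rian and Mirg, long non-coding RNAs downstream of Meg3 on the maternal copy, rose by 0.46 (SE 0.13, limma adjusted p = 0.0490) and 0.66 (SE 0.15, adjusted p = 0.0192) in Ezh1-het. In the double-KO Mirg rose by 0.59 (adjusted p = 0.0376), and Rian differed by 0.26 (adjusted p = 0.356). Dio3, a paternally expressed thyroid hormone deiodinase at the far end, rose by 0.52 in the double-KO (SE 0.12, adjusted p = 0.0148), as did its opposite-strand gene Dio3os by 0.67 (adjusted p = 0.00381), and the double-KO exceeded Ezh2-KO for Dio3 by 0.58 (SE 0.12, adjusted p = 0.0248). Rian, Mirg and Dio3os were well above background on 3 control arrays and Dio3 on 2. Begain, next to Dlk1 on the other side, had differences of 0.44, 0.25 and 0.23 that did not pass. Further out, Wdr25, Wars, Slc25a47 and Slc25a29 lay between -0.24 and 0.13 and none passed.

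**Figure D2:**
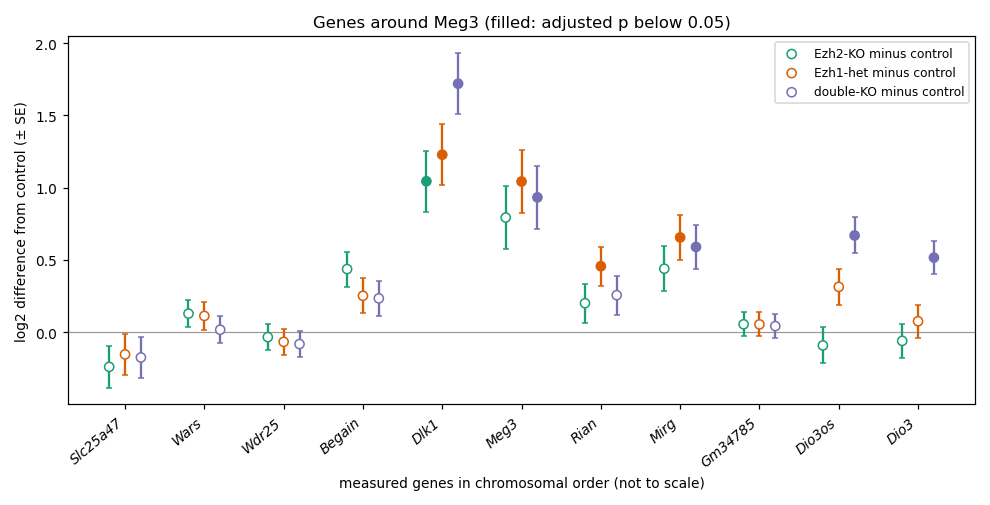
Log2 difference from control (± SE, n = 4 arrays per group) of measured genes on both sides of Meg3, in chromosomal order and not to scale, for the 3 knockout groups; filled points have a limma adjusted p below 0.05. Dlk1 and Meg3 stand highest, the genes from Slc25a47 to Wdr25 lie near 0, and Dio3os and Dio3 are filled in the double-KO.

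Rian lost its Ezh1-het call without control 1, without control 2 or without any Ezh1-het array (0.35 to 0.50). Mirg lost its Ezh1-het call without control 2 or Ezh1-het 2 (0.52 and 0.57) and its double-KO call without control 1, 2 or 4 or double-KO 1, 3 or 4 (0.45 to 0.63). Dio3 lost its double-KO call without control 4, double-KO 3 or double-KO 4 (0.43 to 0.49). The genes whose 16 log2 ratios lay closest to those of Dlk1 were Igf2bp3 (root mean square difference 0.335), Vstm2l (0.352) and Slc32a1 (0.353), where the median gene lay at 1.06. Those closest to Meg3 were Kcnmb4 (0.156), Adamts14 (0.231) and Bcat1 (0.234), where the median gene lay at 0.598.

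Markers of other cells were read beside Dlk1 and Meg3. Of 12 stromal markers, 2, 1 and 2 were called higher in Ezh2-KO, Ezh1-het and the double-KO and 0 lower. Over all genes 2.4%, 5.91% and 3.71% were called higher. The stromal transcription factor Meis1 rose by 0.80, 0.56 and 0.86. Meis1 lost its Ezh2-KO call without Ezh2-KO 2 (0.79) and its Ezh1-het call when control 1, 2 or 3 or Ezh1-het 2, 3 or 4 was left out (0.39 to 0.59). Foxd1, the defining factor of stromal progenitors, rose by 0.72 in the double-KO, a call lost without control 2 or 4 or double-KO 1, 3 or 4 (0.51 to 0.75), and Ren1 (renin) by 0.70 in Ezh2-KO. The mean of the 12 ranged from -0.60 to 0.43 over control arrays, from -0.10 to 0.72 in Ezh2-KO, from -0.20 to 0.52 in Ezh1-het and from -0.17 to 0.26 in the double-KO. Control 2, the lowest array for Dlk1 and Meg3, had the lowest stromal mean. Their part in the result was not tested. Of 7 markers of the adrenal cortex, a neighbouring organ rich in Dlk1, the enzymes Cyp11a1, Cyp11b1 and Hsd3b1 were well above background on no array. In each group 3 of the 7 were well above background on all arrays, among them the enzyme Cyp21a1. The mean of the 4 measured markers lay between -0.03 and 0.09 on every array. The part of adrenal cells in the values of Dlk1 was not tested.

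The Igf2 group comprises the ligand, its neighbour H19, the receptor that clears the ligand and an adaptor that damps the signal. Igf2 ratios were -0.14, -0.32, 0.34 and -0.13 on control arrays 1 to 4, and 0.40, 0.40, 0.15 and 0.50 on Ezh2-KO arrays. They were 0.20, 0.34, 0.37 and 0.46 on Ezh1-het arrays and 0.21, 0.61, 0.55 and 0.59 on double-KO arrays. Control 3 was higher than the other controls and overlapped each knockout group. Igf2 rose by 0.55 in the double-KO (SE 0.13, limma adjusted p = 0.0194), and differed by 0.43 in Ezh2-KO (adjusted p = 0.0803) and 0.41 in Ezh1-het (adjusted p = 0.0659). Within slide 1 the 3 differences were 0.63, 0.50 and 0.64, and within slide 2 0.23, 0.31 and 0.47. The double-KO call was lost, at 0.47 to 0.53, without control 1, 2 or 4 or without double-KO 2, 3 or 4, and without control 3 Igf2 passed in Ezh2-KO (0.56) and Ezh1-het (0.54) as well.

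Zfp362 (root mean square difference 0.10), Kif5a (0.116) and Phox2a (0.131) had the log2 ratios closest to those of the brightest Igf2 probe, where the median gene lay at 0.428. The differences of the further Igf2 probe, A_55_P2118173, were -0.00082, 0.00 and 0.33 (SE 0.15 each, limma adjusted p = 0.998, 0.993 and 0.276), and double-KO 2 stood highest at 1.36. In controls it ranged from 0.39 to 0.61. What part of the Igf2 transcripts each probe reads was not analysed here.

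H19, a maternally expressed non-coding RNA beside Igf2, was read from a bright spot, with a median Cy5 signal 1475 times local background in controls and no saturation. Its log2 ratio ranged from -0.26 to 0.26 in controls, from -0.11 to 0.02 in Ezh2-KO, from -0.47 to -0.19 in Ezh1-het and from -0.49 to 0.13 in the double-KO. The differences of -0.15, -0.37 and -0.17 (SE 0.14) did not pass (limma adjusted p = 0.519, 0.107 and 0.579), and all were positive with median centring. Igf2os, on the opposite strand of Igf2, gave 0.58, 0.43 and 0.52, which did not pass. Ins2 and Th, the next genes, lay between -0.05 and 0.04.

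Igf2r, the receptor that carries Igf2 to the lysosome, ranged from -0.36 to 0.31 in controls, from 0.10 to 0.50 in Ezh2-KO, from 0.36 to 0.52 in Ezh1-het and from 0.12 to 0.63 in the double-KO. Its differences of 0.24, 0.37 and 0.26 (SE 0.14) did not pass (limma adjusted p = 0.333, 0.127 and 0.397), although the 4 Ezh1-het arrays lay above the controls. Airn, the antisense RNA of Igf2r, differed by -0.33, -0.21 and 0.08 and was not called. Slc22a2, a transporter gene of the same cluster, fell by 1.18 in the double-KO (SE 0.25, limma adjusted p = 0.0118), where 2 of 4 arrays were well above background. Slc22a2 is a transporter of kidney tubules, and the mean of 9 tubule markers ranged from -1.91 to -0.74 over the double-KO arrays and from -1.86 to 0.27 over controls, with a median difference of -1.12 and 0 markers called. The part of tubule cells in the value of Slc22a2 was not tested.

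Mest and Grb10 had negative differences under loess. Median centring turned those of the double-KO positive, at values below the median of all genes (0.38). Mest encodes a hydrolase-like protein of mesenchyme, and Grb10 an adaptor that binds insulin and insulin-like growth factor receptors and lowers their signal. Since the calls of both were falls, their most upstream RefSeq entries (GRCm38.p6) are shown with CpG in capitals, Mest at chr6:30733256-30733505 on the plus strand and Grb10 at chr11:12037421-12037670 on the minus strand.
Mest: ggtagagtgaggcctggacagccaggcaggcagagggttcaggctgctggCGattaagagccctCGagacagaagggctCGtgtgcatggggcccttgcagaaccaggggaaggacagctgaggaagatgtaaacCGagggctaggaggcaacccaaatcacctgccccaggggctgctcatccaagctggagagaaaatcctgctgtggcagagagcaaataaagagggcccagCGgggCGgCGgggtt
Grb10: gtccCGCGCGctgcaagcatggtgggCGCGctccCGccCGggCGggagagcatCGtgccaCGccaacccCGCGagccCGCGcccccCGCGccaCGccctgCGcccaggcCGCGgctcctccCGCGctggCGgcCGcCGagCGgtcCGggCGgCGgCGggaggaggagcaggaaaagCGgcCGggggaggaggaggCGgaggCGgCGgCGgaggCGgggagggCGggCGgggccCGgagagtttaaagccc
The stretch of Grb10 holds 40 CpG, more than 98.7% of all promoters in the table, and its further listed start holds 8. The stretch of Mest holds 7, and each of its other two listed starts holds 14. Over the 8 members with an entry (15 starts), the motif GGGGCCCC of the zinc finger factor Plagl1, itself a member, was found on either strand at 1 start, that of Peg3, against 0.889% of all promoters. Its core GGGGCC, which every match of the full motif also holds, was found at 8 of 15 starts, against 22.0% of all promoters. The core is made of G and C alone, and the 8 starts hold 50.8% to 81.2% G and C. The median over all promoters is 52.4%, and the part of base content in the count was not tested. The 8 include all 3 starts of Mest, of which the second and the third lie 3 bases apart and share their match. A match describes the letters alone.

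Mest ratios were 0.10, 0.61, 0.54 and 0.28 on control arrays 1 to 4. On Ezh2-KO arrays they were 0.02, -0.28, -0.06 and -0.54, on Ezh1-het arrays -0.73, -0.40, -0.21 and -0.50, and on double-KO arrays -0.14, 0.04, -0.31 and -0.23. Each knockout array lay below each control array. Mest fell by 0.60 in Ezh2-KO (SE 0.14, limma adjusted p = 0.0343), by 0.84 in Ezh1-het (adjusted p = 0.00254) and by 0.54 in the double-KO (adjusted p = 0.0391). Within slide 1 the differences were -0.48, -0.92 and -0.40, and within slide 2 -0.71, -0.77 and -0.68. With median centring they were -0.03, -0.19 and 0.12 and none passed, each below the median of all genes (0.41, 0.44 and 0.38). The further probe A_55_P2151868 gave -0.87, -1.01 and -0.51 (SE 0.16) and passed in Ezh2-KO and Ezh1-het.

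The Ezh1-het call of Mest held without each single array. Its Ezh2-KO call was lost without control 2, 3 or 4 or without Ezh2-KO 2 or 4 (-0.63 to -0.49), and its double-KO call without control 2, 3 or 4 or without double-KO 1, 3 or 4 (-0.57 to -0.47). Without controls 2 and 3 the 3 differences were -0.40, -0.65 and -0.35 (limma adjusted p = 0.327, 0.0627 and 0.342). Tnc (root mean square difference 0.147), Cped1 (0.155) and Grb10 (0.173) had the log2 ratios closest to those of Mest over the 16 arrays, where the median gene lay at 0.444.

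Grb10 ratios were 0.16, 0.92, 0.42 and 0.33 on control arrays 1 to 4, with control 2 far above the rest. On Ezh1-het arrays they were -0.38, -0.30, -0.10 and -0.28, on double-KO arrays -0.09, 0.30, -0.25 and -0.10, and in Ezh2-KO the lowest was -0.51 and the highest 0.00. Among all knockout arrays only double-KO 2 overlapped the controls. Grb10 fell by 0.61 in Ezh2-KO (SE 0.16, limma adjusted p = 0.0464) and by 0.72 in Ezh1-het (adjusted p = 0.0125), and differed by -0.49 in the double-KO (adjusted p = 0.0972). Within slide 1 these were -0.54, -0.88 and -0.44, and within slide 2 -0.68, -0.56 and -0.55. With median centring they were -0.07, -0.11 and 0.10 and none passed, each below the median of all genes (0.41, 0.44 and 0.38). The Ezh2-KO call was lost without control 2, 3 or 4 and without any Ezh2-KO array (-0.66 to -0.46), whereas the Ezh1-het call held without each single array and was lost without controls 2 and 3 (-0.51, adjusted p = 0.147). The further probe A_52_P40363 gave -0.47, -0.58 and -0.25 (SE 0.11) and passed in the same 2 groups. Hnrnpa2b1 (0.130), Meis2 (0.142) and Hdac4 (0.143) had the closest log2 ratios by root mean square difference, where the median gene lay at 0.429.

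Nephron progenitors are the cells in which Ezh2 was deleted. Of 10 markers of them, 0 were called higher and 2 lower in Ezh2-KO, 0 and 3 in Ezh1-het, and 1 and 2 in the double-KO. Over all genes 2.4%, 5.91% and 3.71% were called higher and 0.678%, 1.9% and 0.914% lower, in the same order. Cited1, a marker of uncommitted progenitors, fell by 0.69, 0.79 and 0.90 and Crym by 0.66, 0.90 and 0.85, while Tmem100 rose by 0.61 in the double-KO. The Ezh2-KO call of Crym (limma adjusted p = 0.0494) was lost without each single array of either group (-0.74 to -0.48), and the Ezh1-het fall of Meox1 (-0.90) without control 3, Ezh1-het 1 or Ezh1-het 3 (-0.84 to -0.72). Tmem100 lost its call without control 1 or 4 or double-KO 1 or 3 (0.55 to 0.59). With median centring Cited1 and Crym passed in none of the 3 groups. The mean of the 10 markers ranged from -0.18 to 0.43 over control arrays, -0.19 to 0.21 in Ezh2-KO, -0.46 to -0.05 in Ezh1-het and -0.25 to 0.13 in the double-KO, and their part in the result was not tested.

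**Figure D3:**
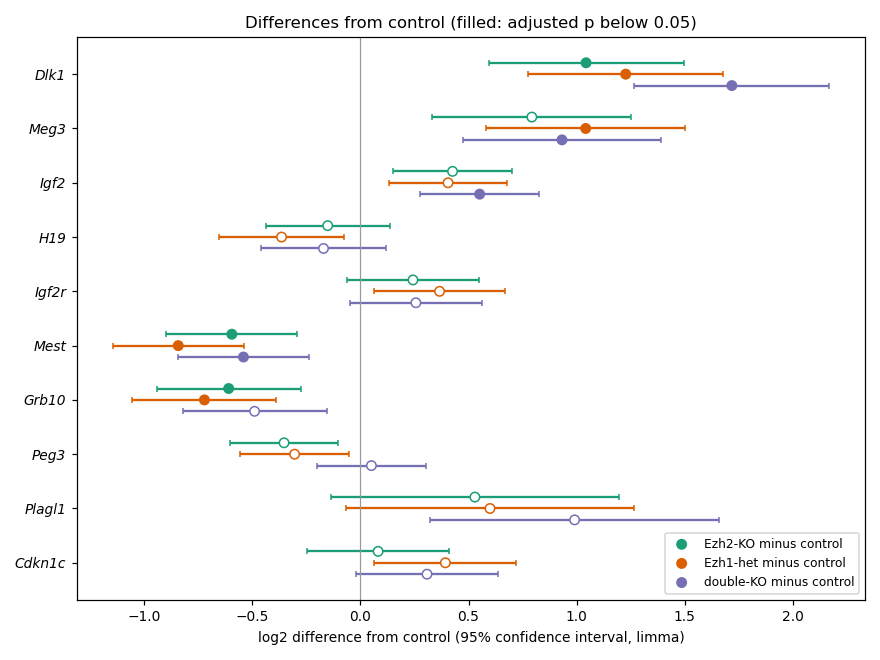
Log2 difference from control of the 10 imprinted growth genes (brightest probe) in the 3 knockout groups, with the 95% confidence interval of the limma fit of all 16 arrays; filled points have an adjusted p below 0.05. Dlk1, Meg3 and Igf2 lie above 0 in each group and Mest and Grb10 below. With median centring in place of loess the double-KO values of Mest and Grb10 are 0.12 and 0.10, where the median of all genes is 0.38.

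**Figure D4:**
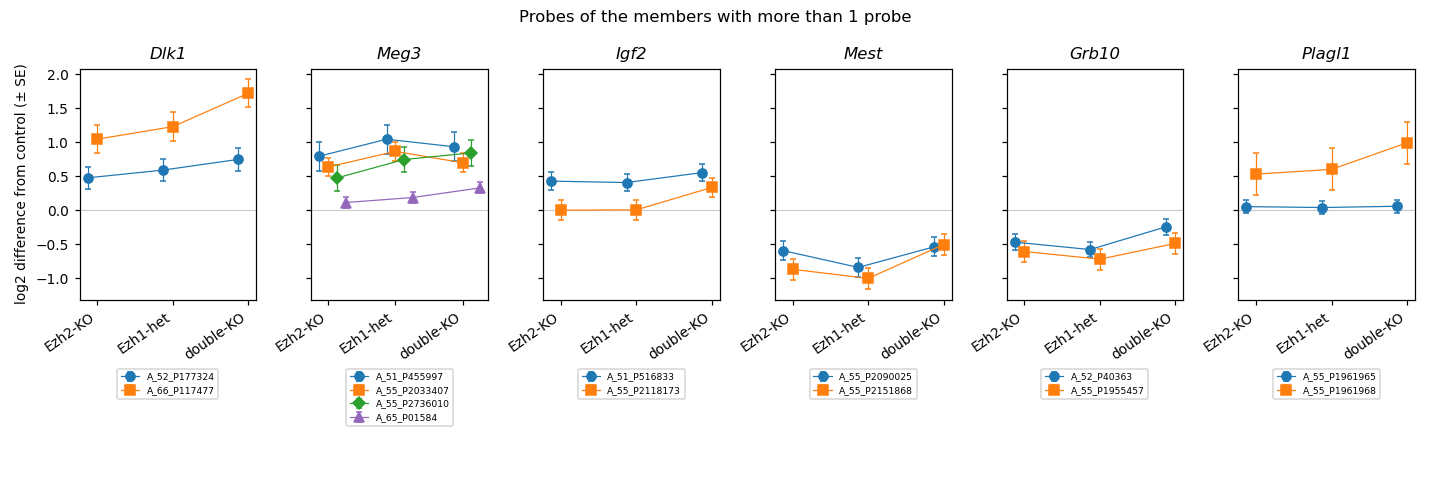
Log2 difference from control (± SE) of every probe of the 6 genes with more than 1 probe, in the 3 knockout groups. The probes of Dlk1, Meg3, Mest and Grb10 keep 1 direction within each gene under loess, those of Igf2 part in Ezh2-KO and Ezh1-het (0.43 and 0.41 against -0.00082 and 0.00), and the dimmer Plagl1 probe stays at 0.04 to 0.06. The dimmest Meg3 probe, A_65_P01584, was well above background on no control array, so its direction does not count as agreement.

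By probe, 6 of the 18 member probes passed in Ezh2-KO (2 higher, 4 lower), 9 in Ezh1-het (5 higher, 4 lower) and 8 in the double-KO (7 higher, 1 lower, with the dimmest Meg3 probe among the higher), where 2.63%, 6.35% and 3.09% of all 34730 probes were called. That Meg3 probe was well above background on no control array and passed the filter through knockout arrays alone, so its call is no support. Probes of the same gene share a transcript and are not independent.

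Plagl1, Peg3 and Cdkn1c, regulators of transcription and of the cell cycle, were not called. Plagl1 was the most variable member in controls, at 0.09, -1.04, -0.79 and 0.51 on control arrays 1 to 4. It ranged from -0.37 to 0.84 in Ezh2-KO, from 0.03 to 0.67 in Ezh1-het and from 0.45 to 1.04 in the double-KO. The differences were 0.53, 0.60 and 0.99 (SE 0.31, limma adjusted p = 0.335, 0.246 and 0.0937), the last of them a 1.99-fold ratio that passed without control 4 (1.26, adjusted p = 0.0241). Without controls 2 and 3 the first 2 differences were -0.08 and -0.01. The dimmer probe A_55_P1961965 gave 0.05, 0.04 and 0.06.

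Peg3, a paternally expressed zinc finger protein, was 0.07, 0.46, 0.13 and 0.35 on control arrays 1 to 4 and -0.24, -0.13, -0.02 and -0.03 on Ezh2-KO arrays. On Ezh1-het arrays it was -0.19, 0.06, -0.05 and -0.04, and on double-KO arrays 1 to 3 0.44, 0.57 and 0.19, with double-KO 4 at -0.00084. The Ezh2-KO and Ezh1-het arrays lay below all controls, and the double-KO arrays overlapped them. Differences from control were -0.35, -0.30 and 0.05 (SE 0.12, limma adjusted p = 0.110, 0.123 and 0.879), and with median centring 0.10, 0.17 and 0.51. The double-KO exceeded Ezh2-KO by 0.40 (95% confidence interval 0.15 to 0.66, adjusted p = 0.142), with no overlap of arrays, and Ezh1-het by 0.36 (0.10 to 0.61, adjusted p = 0.183). Its neighbour Zim1, a maternally expressed zinc finger gene, fell by 0.77 in Ezh2-KO (SE 0.15, limma adjusted p = 0.0140) and by 0.94 in Ezh1-het (adjusted p = 0.00212), and differed by -0.31 in the double-KO (adjusted p = 0.318).

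Cdkn1c was -0.09, -0.22, -0.12 and 0.04 on control arrays 1 to 4. It was -0.45, -0.33, 0.41 and 0.31 on Ezh2-KO arrays, and so split by slide, with differences of -0.24 within slide 1 and 0.40 within slide 2. On Ezh1-het arrays it was 0.25, 0.30, 0.22 and 0.42 and on double-KO arrays 0.11, 0.36, 0.26 and 0.12, above all controls in both groups. The differences of 0.08, 0.39 and 0.31 (SE 0.16) did not pass (limma adjusted p = 0.782, 0.128 and 0.334). Over 7 other podocyte markers the mean was -0.47, -0.14, 0.08 and 0.48 on Ezh2-KO arrays 1 to 4, and ranged from -0.57 to 0.03 in controls, from 0.40 to 0.78 in Ezh1-het and from -0.15 to 0.13 in the double-KO. In Ezh1-het 5 of the 7 were called higher, against 5.91% of all genes. Ptpro, a podocyte membrane phosphatase among the 5, rose by 1.25, and in the other 2 groups 0 of the 7 markers were called. Their part in the values of Cdkn1c was not tested. The neighbouring antisense RNA Kcnq1ot1 differed by -0.62, -0.65 and -0.52 (SE 0.21) and was not called, and Kcnq1, well above background on 1 of 4 control arrays, gave a call in Ezh1-het that was lost when any array of the pair of groups but control 1 was left out.

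Between knockout groups, 0 of the 10 genes were called in limma, where 0.0575% of all genes were called for Ezh1-het minus Ezh2-KO, 0.377% for double-KO minus Ezh1-het and 0.914% for double-KO minus Ezh2-KO. At an unadjusted p under 0.05 the counts were 0, 2 and 2, Dlk1 and Peg3 in both of the latter. Arrays of the groups did not overlap for 1 gene in each comparison (H19, Dlk1 and Peg3 in turn), against 4.55%, 12.7% and 7.57% of all genes.

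Beyond the members, 50 of 60 further imprinted genes were measured. In Ezh2-KO 3 rose and 1 fell, in Ezh1-het 7 rose and 1 fell, and in the double-KO 5 rose and 1 fell. The 7 include Peg10, which passed the filter through knockout arrays alone, and Kcnq1, well above background on 1 of 4 control arrays. The median differences of the 50 genes, 0.04, 0.09 and 0.09, stand beside 0.06, 0.05 and 0.01 over all genes. Of all genes, 3.08%, 7.81% and 4.62% were called in either direction. Sgce, a paternally expressed sarcoglycan, rose by 1.28, 1.61 and 1.30 (SE 0.24, limma adjusted p = 0.0100, 0.00122 and 0.00383), and Magel2 by 0.44, 0.44 and 0.45 (SE 0.09). Peg10, the paternally expressed neighbour of Sgce, met the background criterion on 0 of 4 control arrays and on 1, 3 and 2 arrays of the knockout groups, so no difference is given. Magel2 was well above background on 3 of 4 control arrays. Sfmbt2, a Polycomb-group gene, rose by 0.66 in the double-KO (SE 0.12, adjusted p = 0.00372), against -0.19 in Ezh2-KO. The double-KO exceeded Ezh2-KO for Sfmbt2 by 0.85 (SE 0.12, adjusted p = 0.00129).

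Of the insulin-like growth factor pathway 22 of 24 further genes were measured, with 1, 2 and 1 called higher and 0 lower in the 3 groups. Over all genes 2.4%, 5.91% and 3.71% were called higher and 0.678%, 1.9% and 0.914% lower. Igf2bp3, a fetal protein that binds Igf2 mRNA, rose by 0.76, 1.03 and 1.23 (SE 0.16, limma adjusted p = 0.0212, 0.00175 and 0.000225). Igf2bp3 lost its Ezh2-KO call without Ezh2-KO 4 (0.69), without controls 2 and 3, within each slide and with only the groups compared. Its Ezh1-het and double-KO calls were lost only within slide 2. Its relatives Igf2bp1 and Igf2bp2 lay between -0.26 and 0.14 and were not called. Pappa2, a protease that frees the ligand from binding proteins and was well above background on 2 control arrays, rose by 2.51 in Ezh1-het (SE 0.46, adjusted p = 0.00465). The receptor Igf1r differed by 0.34, 0.24 and 0.20 and the ligand Igf1 by 0.26, 0.20 and 0.17, and neither passed. Of 14 measured regulators of imprinting (DNA methyltransferases, Zfp57, Trim28, Ctcf and others), Dnmt3b rose by 0.44 in Ezh1-het (adjusted p = 0.0482), a call lost without control 2 or 3 or any Ezh1-het array (0.33 to 0.47), and 0 others were called in any of the 3 groups.

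Markers of tissues near the kidney were read as well. Of liver markers, 5 of 7 were measured, and Ttr rose by 2.75 in Ezh1-het (limma adjusted p = 0.00219). Their mean ranged from -1.58 to -0.03 over control arrays, -1.64 to 0.57 in Ezh2-KO, 0.37 to 1.08 in Ezh1-het and -1.06 to 0.59 in the double-KO, and Ttr is also made outside the liver. Of the adrenal medulla and neuron list (4 of 6 measured) Chga, well above background on 2 control arrays, rose by 0.74 in Ezh1-het, a call lost without control 2 or 3 or any Ezh1-het array (0.70 to 0.78). Of skeletal muscle (3 of 8), gonad (2 of 6), red blood cell (3 of 6), endothelium (5 of 6), kidney tubule (9 of 10) and adrenal cortex (4 of 7), 0 genes were called in any comparison with control. The tubule markers had median differences of 0.0047, 0.65 and -1.12, and their array means ranged from -1.84 to 0.46 in Ezh2-KO, from -0.04 to 0.43 in Ezh1-het and from -1.91 to -0.74 in the double-KO. The 3 red blood cell genes had median differences of 0.39, 0.37 and -0.65, with array means from -0.24 to 0.29 in controls and from -1.55 to -0.14 in the double-KO. The part of these cells in the values of the imprinted genes was not tested.

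**Figure D5:**
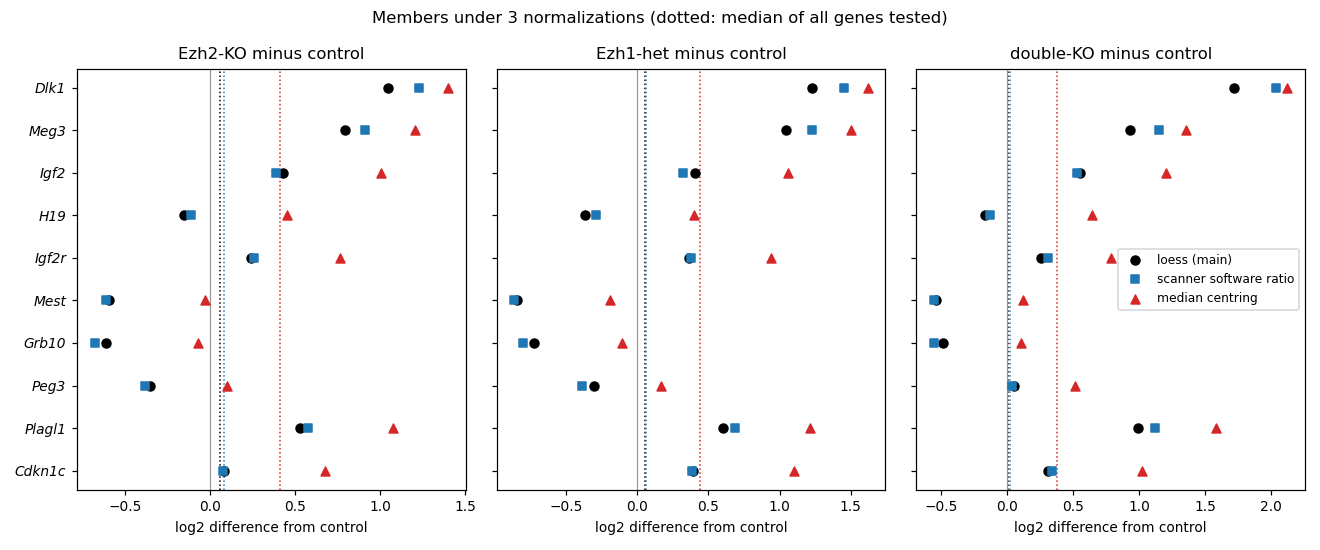
Log2 difference from control of the 10 imprinted growth genes under 3 normalizations of the same arrays: loess on background-corrected signals (main), the processed ratio of the scanner software, and median centring; dotted lines mark the median of all 15645 genes under each. Loess and the software's ratio give every member the same sign, while median centring moves the median gene to 0.41, 0.44 and 0.38 and places Mest, Grb10 and H19 above 0 in the double-KO (0.12, 0.10 and 0.64).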

How the data were processed

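Sample RNA in Cy5 was hybridised beside control 1 RNA in Cy3 on every array, with no dye swap. The deposited values are Cy3 and Cy5 intensities of each spot and its local background (medians over pixels), read by Agilent Feature Extraction 10.7.3.1 per the submitters' processing notes. A deposited value table holds log10 ratios that equal the software's processed ratio within rounding. Per the labels and the series' design text, the 4 arrays of a group are biological replicates.

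Spot intensities were corrected with normexp (offset 50), normalized by loess within each array with control spots at weight 0, and outlier spots were left out. Spots of a probe were averaged, and 1 fit of 4 group means over all 16 arrays was made with limma 3.58.1 (lmFit and eBayes, R 4.3.3), without blocks. Benjamini-Hochberg adjustment ran over all 15645 genes, or over 34730 probes for values by probe. A difference is a difference of group means in log2 units. The arrays' number limits the precision. The script was tested on simulated data. Probe accessions were matched to RefSeq symbols (GRCm38.p6): 32994 of 56605 probes have 1 symbol and 23611 none. A further probe that is named H19 without a RefSeq accession was not analysed here.

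Named are all members, of each list the called genes (up to 8, by the size of the double-KO difference), and the 3 genes nearest to each called member by root mean square difference. Neighbours of members and a few uncalled genes (Igf1, Igf1r, Igf2bp1, Igf2bp2) were singled out after their values were seen. The members and lists were chosen with earlier results of these data known. Alternatives were median centring, the software's ratio, no background correction, other filters, the mean of probes, other fits and blocks, and arrays left out. No pairing by replicate number was detected: deviations of same-numbered arrays correlated at a median of 0.017 (-0.48 to 0.51, 8 of 24 pairs over 0.1). Pairs of other numbers on the same slide had a median of -0.016 (-0.54 to 0.69). With spreads this wide, a modest pairing would not be seen. Replicates 1 and 2 of every group lay on slide 1, and 3 and 4 on slide 2.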

Additional observations from a re-analysis of the deposited data

Results flagged for a closer look

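Igf2 (probe A_51_P516833) on double-KO 1 was 0.21, and the other 3 double-KO arrays lay between 0.55 and 0.61, so that this array stood apart from its group by Dixon's test. H19 on Ezh1-het 1 was -0.47, with the nearest array of its group at -0.22. Both flags came from 72 groups of 4 arrays tested over the member probes, and chance flags about 1 in 20 groups.

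Dio3 differed between knockout groups: the double-KO exceeded Ezh2-KO by 0.58 (SE 0.12, limma adjusted p = 0.0248). Sfmbt2 did so by 0.85 (SE 0.12, adjusted p = 0.00129).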

How the results depend on the processing

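Of the 10 genes, the number called against control was 3 for Ezh2-KO, 4 for Ezh1-het and 4 for double-KO, and 0 in the comparisons between knockout groups. In Ezh2-KO it was 6 with median centring, 1 with the software's processed ratio, 2 with no filter, and 0 in fits of only the groups compared, without controls 2 and 3, within slide 1 and within slide 2. In Ezh1-het it was 6 with array weights, 0 without controls 2 and 3, 1 within slide 1 and 0 within slide 2. In the double-KO it was 8 with median centring, 1 in fits of only the groups compared, 2 without controls 2 and 3, and 1 within each slide. Array weights gave 3 calls for Ezh1-het minus Ezh2-KO, 1 for double-KO minus Ezh1-het and 5 for double-KO minus Ezh2-KO. In the same order they called 3187, 1114 and 2904 of all 15645 genes. Within slide 1, 1 member was called for Ezh1-het minus Ezh2-KO, beside 878 of all 15645 genes. With only the groups compared 1 was called for double-KO minus Ezh1-het, beside 1033 of all genes. Leaving out single arrays gave 1 to 3, 4 to 5 and 1 to 4 calls against control and 0 between knockout groups. The replicate block gave 4, 4 and 4 calls against control and 0 between knockout groups, as did the slide block. Over all genes the calls against control were 482, 1222 and 723, and 6839, 8037 and 5364 with median centring, 59, 956 and 442 with only the groups compared, 2396, 2384 and 1960 with array weights, 78, 235 and 450 without controls 2 and 3, 162, 138 and 229 within slide 1 and 6, 37 and 113 within slide 2. Signs changed as follows, with the cause not tested. In Ezh2-KO, median centring gave Peg3 0.10 and H19 0.45, array weights Cdkn1c -0.19 and Plagl1 -0.094, leaving out controls 2 and 3 Plagl1 -0.079 and H19 0.00087, slide 1 Cdkn1c -0.24, and single arrays left out Cdkn1c -0.060 to 0.23. In Ezh1-het, median centring gave Peg3 0.17 and H19 0.40, and leaving out controls 2 and 3 Plagl1 -0.0094. In the double-KO, median centring gave Grb10 0.10, Mest 0.12 and H19 0.64, slide 2 Peg3 -0.14 and H19 0.051, and single arrays left out Peg3 -0.041 to 0.15. Control 2 had the lowest Cy5 signal over background, 5.21 at the upper quartile.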
